A study of Saccharomyces cerevisiae with 6 samples.

Results

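MET2 and MET28, a pair of sulfur metabolism genes of the budding yeast Saccharomyces cerevisiae, were followed across 6 RNA libraries through 4 rows of the deposited tables. The rows were chosen by identifier: YNL277W is MET2, YNL276C lies opposite MET2, YIR017C is MET28 and YIR017W-A lies opposite MET28. They are 4 of 7127 annotated features. The strain of every library was BY4741, a haploid with deletions of HIS3, LEU2, MET17 (also called MET15) and URA3, so controls and starved cells alike carry the MET17 deletion. Cells in log phase in Synthetic Complete medium were grown on for 1 h untreated (control, 2 libraries), or starved for 1 h of nitrogen (2 libraries) or of potassium (2 libraries). The labels give each group 1 library in batch 1 and 1 in batch 2 and name no separate cultures beyond that, so each p-value reflects only how far these libraries vary, which may be technical.

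Yeast takes up sulfate, reduces it to sulfide and joins the sulfide to a carbon chain made from homoserine. MET2 encodes homoserine O-acetyltransferase, which makes that chain, O-acetylhomoserine. MET17 encodes the next enzyme, which adds the sulfide to give homocysteine, the precursor of methionine. MET28 encodes a basic leucine zipper protein without an activation domain of its own. It assembles with the DNA-binding protein Cbf1 and the activator Met4 on promoters of sulfur genes, and Met31 and Met32 are zinc finger proteins that bring Met4 to such promoters by another sequence. The pathway is known for its repression when methionine is plentiful. A strain without MET17 takes its methionine from the medium.

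In starved cells almost all reads of the chosen rows lay under the features on the other strand. This makes the layout of the loci the first thing to see. All coordinates are on genome build R64, the build that the submitters' processing notes name. MET2 is a single-exon gene at chrXIV:117349-118809 on the plus strand. YNL276C, an open reading frame of 396 bases that the RefSeq annotation does not list, was placed at chrXIV:118431-118826 on the minus strand, where 379 of its bases lie opposite the 3′ end of MET2, 25.9% of the gene, and 17 lie beyond its stop codon. MET28 is a single-exon gene at chrIX:383556-384119 on the minus strand. YIR017W-A, an open reading frame of 600 bases that is likewise not in that annotation, was placed at chrIX:383566-384165 on the plus strand, where 554 of its bases cover 98.2% of MET28 and 46 lie before its start codon.

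The stretches below show where feature and gene meet, each read 5′ to 3′ on its own strand, from the RefSeq genome sequence of R64. The capitals mark the stop codon of MET28 (chrIX:383556-383600, minus strand), the start codon of YIR017W-A (chrIX:383566-383600, plus strand) and the stop codon of YNL276C (chrXIV:118431-118475, minus strand), and the last line is MET2 over the same bases as YNL276C on the plus strand.
MET28, last 45 bases: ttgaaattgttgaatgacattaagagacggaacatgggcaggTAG
YIR017W-A, first 35 bases: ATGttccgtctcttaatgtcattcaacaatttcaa
YNL276C, last 45 bases: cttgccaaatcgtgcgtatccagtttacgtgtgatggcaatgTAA
MET2, the same 45 bases: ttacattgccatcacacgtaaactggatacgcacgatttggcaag
The same base pairs therefore belong to a gene and to a feature, and only the strand recorded for a read tells them apart. Whether the quantifier used the strand is not given in the sources used here. Reads were not shared evenly between rows over nearly the same bases: in nitrogen library 1 YIR017C held 16 and YIR017W-A 5594. Which strand of RNA the reads of a row came from is not known with certainty and was not tested. The estimated counts of all 4 rows were whole numbers in all 6 libraries, within 0.001 reads.

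**Figure D1:**
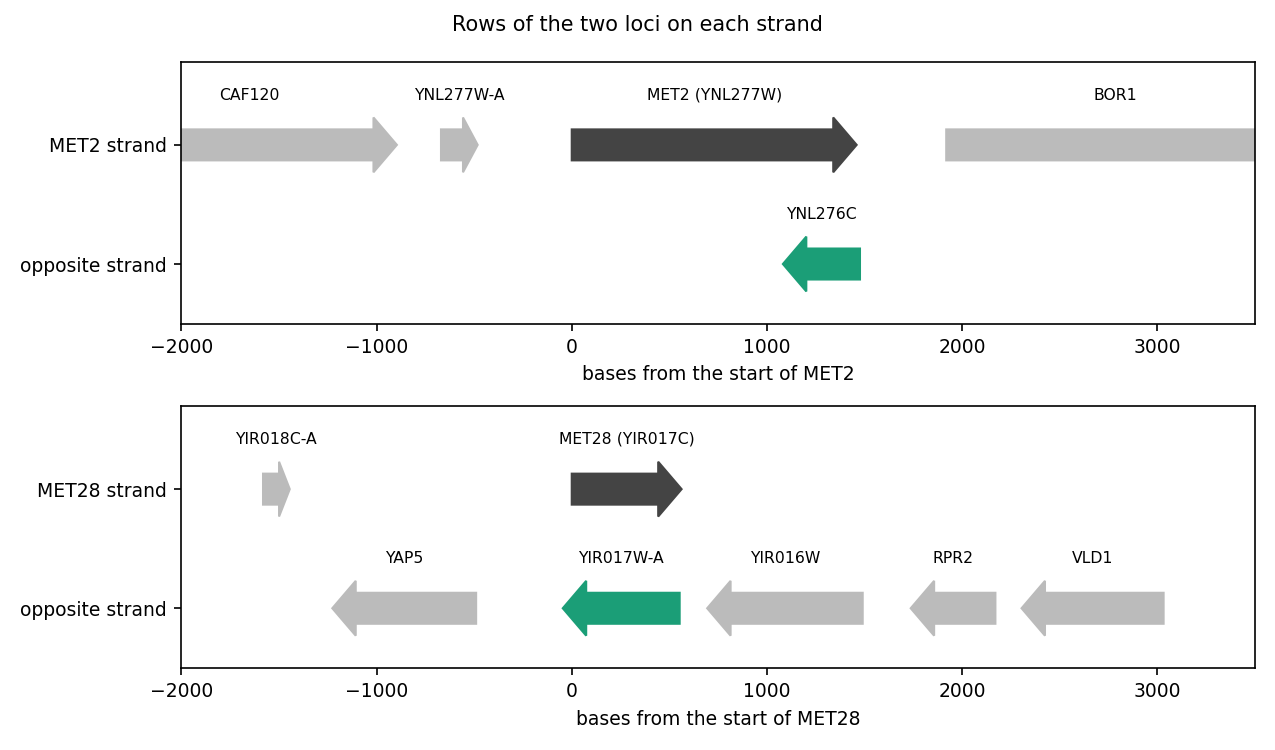
Map of both loci, drawn to scale in bases from the first base of the start codon of MET2 (top) and of MET28 (bottom), with rows on the gene's strand above and rows on the opposite strand below; arrows give the direction of each row, green the opposite features and grey the neighbours. YNL276C covers only the 3′ end of MET2, whereas YIR017W-A covers nearly all of MET28.

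The libraries held 357839 to 425919 reads. Features of the ribosomal RNA genes or opposite them took 19.5% to 28.3% of reads in 5 libraries and 44.9% in potassium library 2. Features paired with a gene on the other strand, by the rule given in the methods, took 55.3% or more of the reads of untreated cells, at most 28.3% without nitrogen, and 41.1% and 50.1% without potassium. Because this share differs between groups, the scaling matters: scaling over the paired features in place of TMM over all features moved the median of all log2 fold changes up by 1.27 (nitrogen against control), 0.21 (potassium against control) and 1.07 (nitrogen against potassium). Levels below are CPM, reads scaled to TMM-corrected library size, with the SD over 2 libraries, and adjusted p-values are from edgeR's quasi-likelihood test with Benjamini-Hochberg adjustment over all 2325 features tested, called below 0.05.

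The reads opposite MET2 (YNL276C) were lowest in untreated cells, intermediate without potassium and highest without nitrogen, and no groups overlapped. With 2 libraries a group, such separation is easily reached, here and for the other rows. How many of all features show it is not given here. Untreated cells gave 39 and 70 reads, nitrogen-starved cells 1625 and 2180, and potassium-starved cells 432 and 244. The level was 214 ± 111 CPM in control, 2589 ± 613 CPM in nitrogen and 1151 ± 103 CPM in potassium (SD, n = 2 each). The untreated libraries stood apart from each other, at 136 and 292 CPM, so the size of each fold change depends on them, while its direction does not.

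Against control, YNL276C rose 12.1-fold in nitrogen starvation (log2 3.61, SE 0.37, adjusted p = 1.2e-04, higher in 2 of 2 libraries). Within batch 1 the ratio was 15.9, and within batch 2 it was 10.3. In potassium starvation it rose 5.38-fold (log2 2.44, SE 0.36, adjusted p = 0.0064), and the ratio was 9.01 within batch 1 and 3.69 within batch 2. Both rises were called in each fit that left out 1 library, and without control library 2 they were larger, at log2 4.25 in nitrogen and 3.08 in potassium, but the potassium rise was not called by limma on log2(TPM + 1) or on log2(TPM + 5), at adjusted p of 0.088 and 0.11, where 2 and 3 features were called in all. The difference between starvations was smaller, 2.25-fold higher without nitrogen (log2 1.17, SE 0.33, adjusted p = 0.020), or 1.76 in batch 1 and 2.80 in batch 2. That last call was lost without nitrogen library 2 (log2 0.90, adjusted p = 0.11), potassium library 1 (1.14, adjusted p = 0.071) or potassium library 2 (1.08, adjusted p = 0.082), and with the paired scaling the value was 2.23 (adjusted p = 8.8e-04).

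The feature opposite MET28 was also lowest in untreated cells and highest without nitrogen. Under YIR017W-A untreated cells gave 89 and 90 reads, nitrogen-starved cells 5594 and 5470, and potassium-starved cells 662 and 274. By reads it stood 3rd and 5th among all 7127 features without nitrogen, 304th and 276th untreated, and 46th and 86th without potassium. The level was 343 ± 46.6 CPM in control, 7504 ± 115 CPM in nitrogen and 1543 ± 470 CPM in potassium (SD, n = 2 each), again with no overlap between groups.

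Against control, YIR017W-A rose 21.9-fold without nitrogen (log2 4.45, SE 0.32, adjusted p = 3.1e-05), or 23.9-fold within batch 1 and 20.2-fold within batch 2. Without potassium it rose 4.50-fold (log2 2.17, SE 0.30, adjusted p = 0.0050), or 6.05-fold within batch 1 and 3.22-fold within batch 2. The potassium libraries differed from each other, at 1875 and 1211 CPM, and the lower one is the library with the largest ribosomal share, whose part in this was not tested. The potassium rise was kept in each of the 6 fits without 1 library and was not called by limma on log2(TPM + 1) or log2(TPM + 5), at adjusted p of 0.13 and 0.18. Nitrogen exceeded potassium 4.86-fold (log2 2.28, SE 0.29, adjusted p = 4.8e-04), a call kept under each of the 19 alternative settings. Of these settings, 1 used reads equal to the main counts, so it repeats the main fit.

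**Figure D2:**
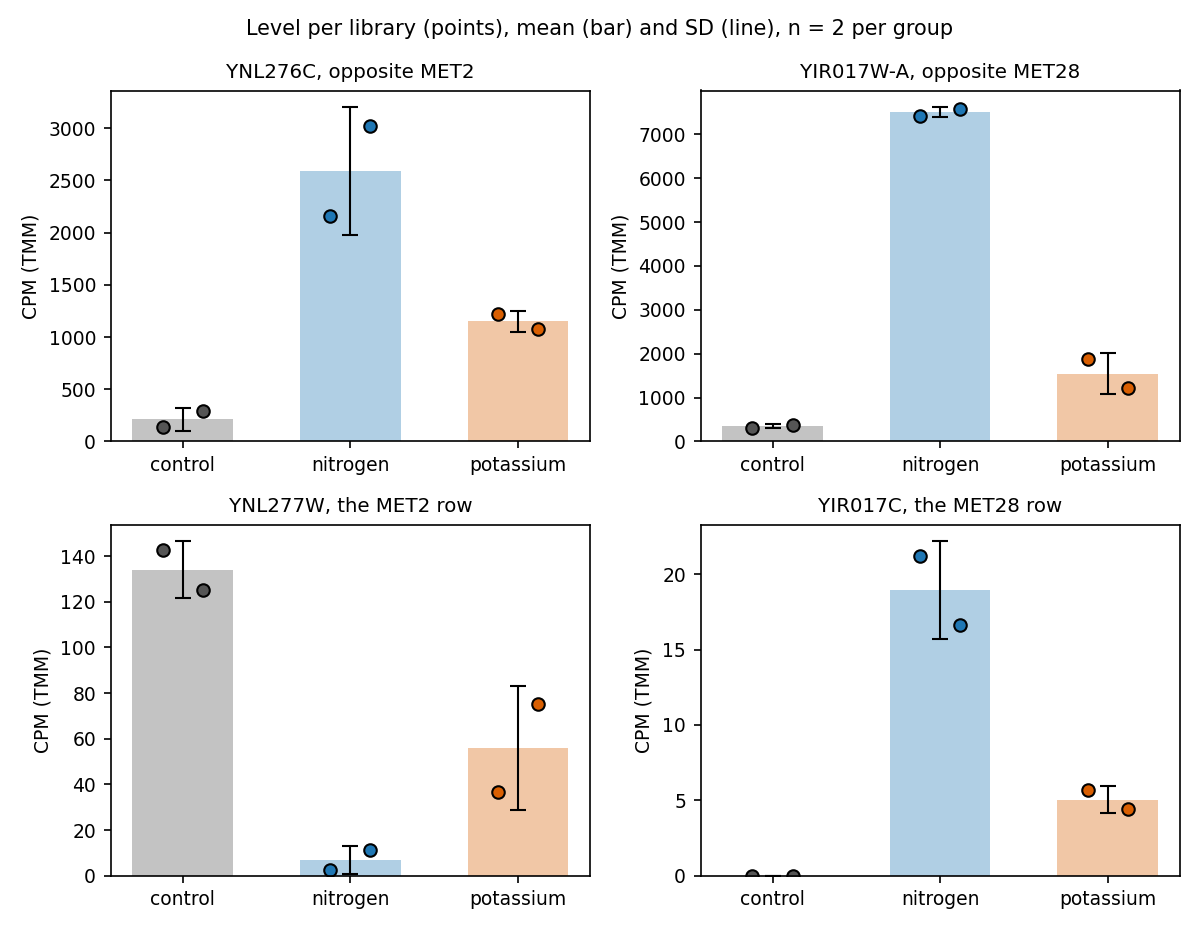
Level of each of the 4 rows in CPM on a linear axis, with 1 point per library, bars at the group mean and lines of 1 SD (n = 2 per group). Both opposite features order as control, potassium, nitrogen, the MET2 row itself orders the other way, and the MET28 row reaches no more than 21.2 CPM.

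Rises of both features stand against many changes elsewhere. In nitrogen starvation 25.8% of the 2325 tested features were called higher and 20.4% lower, 601 and 474 features. With the paired scaling 56.5% were called higher and 7.66% lower, 1314 and 178 features. Among the 359 tested features paired with a gene, 5.57% were called higher and 59.6% lower in nitrogen starvation, or 27.6% and 25.6% with the paired scaling, and YIR017W-A and YNL276C had the 3rd and 4th highest log2 fold changes of the 359. Over all tested features they stood 127th and 205th. In potassium starvation 4.73% of all tested features and 6.69% of paired ones were called higher, and 4.6% and 15% were called lower. With the paired scaling 5.63% of all and 8.36% of paired features were higher, and 3.66% and 13.9% lower. By TMM fold change YNL276C and YIR017W-A stood 10th and 12th of the 359. Between nitrogen and potassium 23.3% of all tested features were called higher and 19.4% lower (48.9% and 7.74% with the paired scaling), and of paired ones 5.29% were called higher and 57.4% lower (19.8% and 24.2% with the paired scaling). YNL276C and YIR017W-A were both called higher, at ranks of 15 and 6 of the 359. These ranks describe features chosen with the results known, and no test rests on them.

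The 3 comparisons share libraries, so the members' values in them are not independent. With the paired scaling, YNL276C had a log2 fold change of 4.90 in nitrogen and 2.66 in potassium, and YIR017W-A had 5.73 and 2.42, all called. With library size alone the values were 5.36 and 2.81 for YNL276C and 6.19 and 2.58 for YIR017W-A, all called. TMM thus gave lower values for both than these scalings did, and all 3 gave the same direction.

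**Figure D3:**
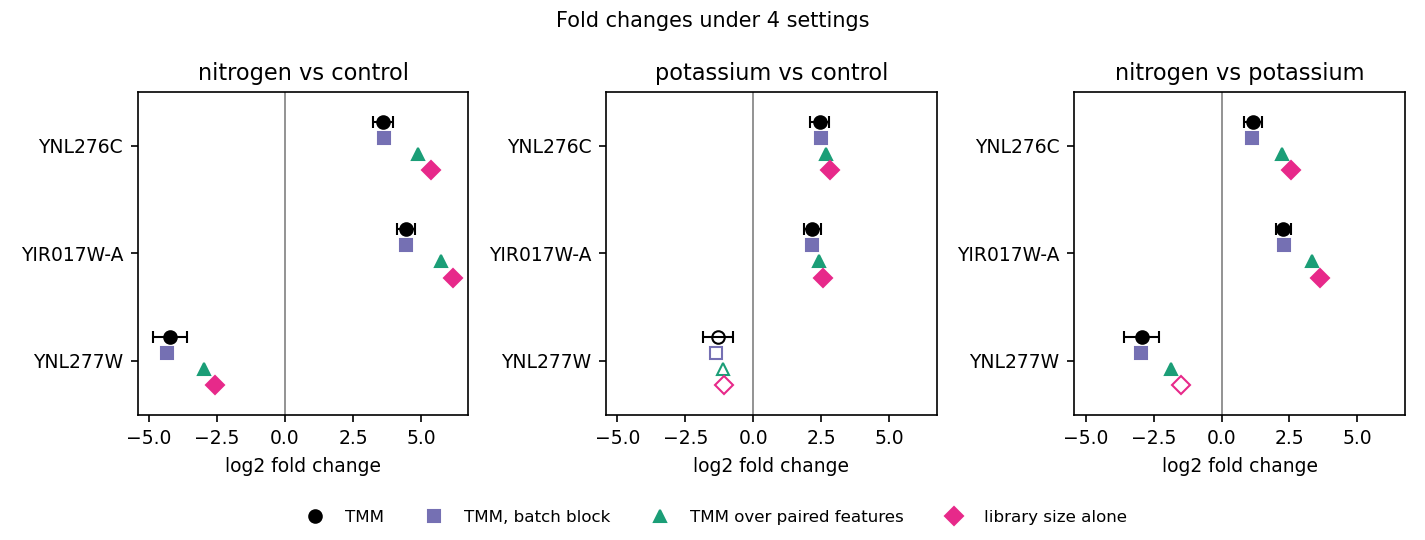
Log2 fold changes of YNL276C, YIR017W-A and YNL277W in the 3 comparisons under 4 settings, with the SE of the TMM fit as a line; filled symbols have an adjusted p below 0.05. Both opposite features are above 0 and YNL277W is below 0 in each of the comparisons and settings shown.

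The row of MET2 itself went the other way. YNL277W, 1461 bases long, gave 41 and 30 reads untreated, 2 and 8 without nitrogen and 13 and 17 without potassium. Its level was 134 ± 12.4 CPM in control, 6.87 ± 5.97 CPM in nitrogen and 56.0 ± 27.1 CPM in potassium (SD, n = 2 each), and the groups did not overlap. In nitrogen starvation it fell 19.5-fold by group means (log2 -4.24, SE 0.62, adjusted p = 8.8e-04), among 20.4% of features called lower. With the paired scaling the value was -2.99 (adjusted p = 0.0031), and library size alone gave -2.57 (adjusted p = 0.0073). The size rests on few reads: the control level over the nitrogen level was 53.8 within batch 1, which rests on 2 nitrogen reads, and 11.3 within batch 2. The log2 value was -3.56 without nitrogen library 1 and -5.49 without nitrogen library 2, called in both fits.

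In potassium starvation YNL277W was not called (log2 -1.30, SE 0.54, adjusted p = 0.17). Against potassium, nitrogen was lower (log2 -2.94, SE 0.65, adjusted p = 0.0072), a call lost with library size alone (-1.48, adjusted p = 0.093). That value moved to -2.26 without nitrogen library 1, -4.19 without nitrogen library 2 and -3.53 without potassium library 1, and was called in each of these fits. As a share of the reads of YNL277W and YNL276C together, the MET2 row held 41 of 80 and 30 of 100 untreated (95% Wilson intervals 40.5% to 61.9% and 21.9% to 39.6%). Without nitrogen it held 0.123% and 0.366% (0.0337 to 0.447 and 0.185 to 0.720), and without potassium 2.92% and 6.51% (1.72 to 4.93 and 4.11 to 10.2). These intervals cover counting error only. Since YNL276C lies opposite only 25.9% of MET2, the share leaves out any reads opposite the rest of the gene. The share was thus far higher in untreated cells than in starved ones, with no overlap, although the row is the longer one, at 1461 against 396 bases.

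The row of MET28 itself held almost nothing. YIR017C was at 0 in both untreated libraries and held 16 and 12 reads without nitrogen, and 2 and 1 without potassium. With the control counted at a floor of 3 reads per library, nitrogen was at least 1.65-fold higher (adjusted p = 0.0096), a call lost without nitrogen library 1 (adjusted p = 0.085) or nitrogen library 2 (adjusted p = 0.053). Potassium against control was not called (adjusted p = 0.21), and no fold is given, since both groups are at or under the floor. Of the reads of YIR017C and YIR017W-A together, the MET28 row held 0 of 89 and 0 of 90 in control. By the limit of 3 reads for a count of 0, this allows shares of up to 3.37% and 3.33%. In the 4 starved libraries the share was 0.219% to 0.364%. At this depth a share in control like that in starved cells could not be seen.

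Per length, the features opposite MET28 and MET2 were set side by side within each library. In reads per kb of feature, YIR017W-A over YNL276C gave a ratio of 1.51 and 0.849 untreated, 1.01 and 0.741 without potassium, and 2.27 and 1.66 without nitrogen. The nitrogen ratios lie above those of the other 4 libraries, the nearest being 1.66 without nitrogen and 1.51 untreated. Levels per kb were 541 ± 280 and 572 ± 77.7 CPM per kb for YNL276C and YIR017W-A in control, 6539 ± 1547 and 12506 ± 191 in nitrogen, and 2906 ± 260 and 2572 ± 783 in potassium (SD, n = 2 each). In the deposited TPM values, which divide by an effective length that is short for small features, the ratio was 0.956 and 0.538 in control, 1.44 and 1.05 in nitrogen, and 0.642 and 0.470 in potassium. No test was made between features.

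The DNA upstream of both genes was searched for the letters that regulators of sulfur and nitrogen genes are known to bind, in a window from 250 bases before to 50 after the first base of each gene's start codon, on both strands, as a description. The first motif, CACGTG, is bound by Cbf1, and 2.92% of the 6001 such windows of protein-coding genes held it. The core bound by Met31 and Met32, CTGTGG, was in 6.85% of windows. The GATA factors of nitrogen genes bind GATAAG, which 14.7% of windows held. Gcn4, the activator of amino acid synthesis genes, binds TGACTC, found in 7.98% of windows. The window of MET28 held the Cbf1 letters at 219 bases before the start codon, the Met31 and Met32 core on the other strand at 153 bases before it and the Gcn4 letters on the other strand at 102 bases before it. It held no GATA letters, and the window of MET2 held none of the 4 motifs. In a longer window of the 500 bases before each start codon, chosen after the shorter one had been searched, 6.23% of 6000 windows held the Cbf1 letters. MET2 was among them, with a match at 353 bases before its start codon. MET2 held none of the other 3 motifs there, which 13.2% (Met31 and Met32 core), 22.8% (GATA) and 12.7% (Gcn4) of these windows held. MET28 held a further Met31 and Met32 core on the other strand, at 284 bases before its start codon, and again no GATA letters.

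The window of MET28 (chrIX:384070-384369, minus strand) and a stretch of 60 bases around the match upstream of MET2 (chrXIV:116969-117028, plus strand) are shown because they hold these letters, from the RefSeq sequence of R64, 5′ to 3′ on the gene's strand. Capitals mark the matches, read on the gene's strand in each case, and the start codon of MET28.
MET28: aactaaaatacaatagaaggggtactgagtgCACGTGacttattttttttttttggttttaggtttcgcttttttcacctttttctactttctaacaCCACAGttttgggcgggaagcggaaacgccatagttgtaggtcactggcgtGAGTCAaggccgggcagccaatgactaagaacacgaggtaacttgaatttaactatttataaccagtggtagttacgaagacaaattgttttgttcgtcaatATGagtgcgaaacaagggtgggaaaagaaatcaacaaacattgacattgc
MET2: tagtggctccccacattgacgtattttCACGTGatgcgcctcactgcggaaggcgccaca
The windows of 17 of the 6001 genes, 0.283%, held both the Cbf1 letters and the Met31 and Met32 core, a pair counted after the matches of MET28 had been seen. A match says only that the letters are there.

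Other genes of sulfur metabolism could be followed only through their own rows, because MET2 and MET28 were the only genes of a list of 42 with a paired feature. In starved cells the own rows of MET2 and MET28 held far fewer reads than the features opposite, so values of own rows are given as reads under that identifier and not as levels of the genes' messages. MET17, deleted in the strain, was at 0 in all 6 libraries, and 1 of the 42 rows was at 0 throughout. Own rows of genes not deleted were near 0 as well, with 1 read for MET7 and 4 for SAM4 in all libraries together. The 0 of MET17 therefore cannot be tied to its deletion. Apart from MET2 and MET28, 16 of 40 own rows passed the filter on low counts. In nitrogen starvation 2 of these 16 rose, 5 fell and 9 were not called, with a median log2 fold change of -0.83 beside 0.28 over all tested features, of which 25.8% were called higher and 20.4% lower. With the paired scaling 7 rose and 1 fell, beside 56.5% and 7.66% of all tested features, and the medians of these rows and of all tested features were 0.43 and 1.55. In potassium starvation 2 of 16 rose and 0 fell by edgeR, beside 4.73% and 4.6% of all tested features, with a median of 0.18 beside 0.01. With the paired scaling the counts were also 2 and 0, beside 5.63% and 3.66% of all, and with library size alone 1 rose. Between nitrogen and potassium 2 of 16 were called higher and 5 lower, beside 23.3% and 19.4% of all, or 8 and 4 with the paired scaling, beside 48.9% and 7.74%.

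Among the regulators, reads under MET31 rose. The row held 1 and 2 reads in control, 299 and 452 in nitrogen and 17 and 10 in potassium. The log2 fold change was 6.41 in nitrogen (SE 0.49, adjusted p = 3.6e-05; 7.09 without control library 2) and 2.96 in potassium (SE 0.61, adjusted p = 0.021), the latter not called when either control library or potassium library 1 was left out (adjusted p up to 0.12), nor by limma on log2(TPM + 1) (0.088) or log2(TPM + 5) (0.18). Reads under MET32 numbered 77 and 65 in control, 92 and 77 in nitrogen and 42 and 32 in potassium. Its nitrogen fold change of -1.24 on the log2 scale with TMM (adjusted p = 0.0061) was 0.04 with the paired scaling (adjusted p = 0.90), so its direction depends on the scaling. MET4, CBF1 and MET30, the activator, its DNA-binding partner and the ubiquitin ligase subunit that restrains it, held at most 5 reads in any library and were not tested.

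Among the sulfate permeases, reads under SUL1 fell without nitrogen and were not called without potassium. They numbered 153 and 138 in control, 56 and 39 in nitrogen and 229 and 131 in potassium. The log2 fold change was -3.10 in nitrogen (SE 0.25, adjusted p = 4.4e-05), and with the paired scaling -1.83 (adjusted p = 6.2e-04). In potassium it was 0.15 with TMM (SE 0.23, adjusted p = 0.73) and 0.37 with the paired scaling (adjusted p = 0.39). Nitrogen against potassium gave -3.25 (SE 0.25, adjusted p = 1.3e-04), which tests that difference directly. The value was smaller with the paired scaling (-2.19, adjusted p = 3.4e-04) and with library size alone (-1.86, adjusted p = 0.0045). Of the 19 alternative settings, 1 did not call it. By limma on log2(TPM + 1) and log2(TPM + 5) the nitrogen fall was not called (adjusted p = 0.11 and 0.14). Reads under SUL2 had a log2 fold change of -2.04 in nitrogen (adjusted p = 0.0067), not called with the paired scaling (-0.78, adjusted p = 0.16).

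Among the rows of sulfate reduction, MET10, a subunit of sulfite reductase, was at 0 untreated and gave 10 and 22 reads without nitrogen. That is at least 1.90-fold higher at the floor (adjusted p = 0.014), and was not called when control library 1 (adjusted p = 0.055) or nitrogen library 2 (0.11) was left out. MET3, MET5 and MET1, of sulfate activation, sulfite reduction and the cofactor siroheme, had log2 fold changes of 0.77, 1.17 and 1.71, none called with TMM and all called with the paired scaling at 2.02, 2.42 and 2.97. MET14, MET16, MET8 and MET22, and the homoserine genes HOM2, HOM3 and HOM6, held at most 13 reads in any library and were not tested. Outside sulfate reduction, BDS1 and JLP1, listed under other sulfur sources, had log2 fold changes of 0.73 and -0.10 in nitrogen, neither called with TMM. With the paired scaling both were called higher, at 2.01 (adjusted p = 0.0010) and 1.18 (adjusted p = 0.0072).

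Among methionine and S-adenosylmethionine rows, MET13, methylenetetrahydrofolate reductase, gave 14 and 4 reads untreated and 4 and 8 without nitrogen, and was called lower with TMM (adjusted p = 0.033). MUP3, a methionine permease, had a log2 value of -2.53 there (adjusted p = 0.013). Neither was called with the paired scaling (-0.75 and -1.29). MET13 was also not called with the batch as a block (adjusted p = 0.053), or without control library 1 (log2 -1.01), nitrogen library 1 or nitrogen library 2, and MUP3 was not called without control library 2 or nitrogen library 2. MMP1, a permease of S-methylmethionine, held 13 and 11 reads in control, 17 and 13 in nitrogen and 68 and 30 in potassium. Reads under it rose without potassium (log2 1.84, SE 0.41, adjusted p = 0.027). That call was lost with library size alone (adjusted p = 0.079) and when either control library or potassium library 1 was left out (adjusted p up to 0.13).

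Set directly against each other, nitrogen and potassium starvation differed in 7 of these 16 rows. Over all tested features 23.3% were called higher and 19.4% lower in this comparison, so the count is near that of features at large. Reads under MET31 and MET1 were higher without nitrogen, with log2 differences of 3.45 (adjusted p = 2.7e-04) and 2.16 (adjusted p = 0.049). The MET1 call was lost with the batch as a block (adjusted p = 0.064) and when nitrogen library 2 (log2 1.43), potassium library 1 or potassium library 2 was left out (adjusted p up to 0.24). Beside SUL1, reads under MMP1, MUP3, MET13 and SAM2, an S-adenosylmethionine synthetase, were lower without nitrogen, with log2 differences of -2.99, -3.17, -2.60 and -3.07 (adjusted p = 6.5e-04, 0.0038, 0.0094 and 0.0044). SAM2 gave 5 and 5 reads untreated, 2 and 9 without nitrogen and 24 and 14 without potassium, and its difference was -2.35 without nitrogen library 1 and -4.45 without nitrogen library 2. The MET13 call was lost with the paired scaling (adjusted p = 0.068) and when nitrogen library 1 or potassium library 1 was left out. With library size alone MET13, MUP3 and SAM2 were not called (adjusted p = 0.18, 0.056 and 0.066).

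**Figure D4:**
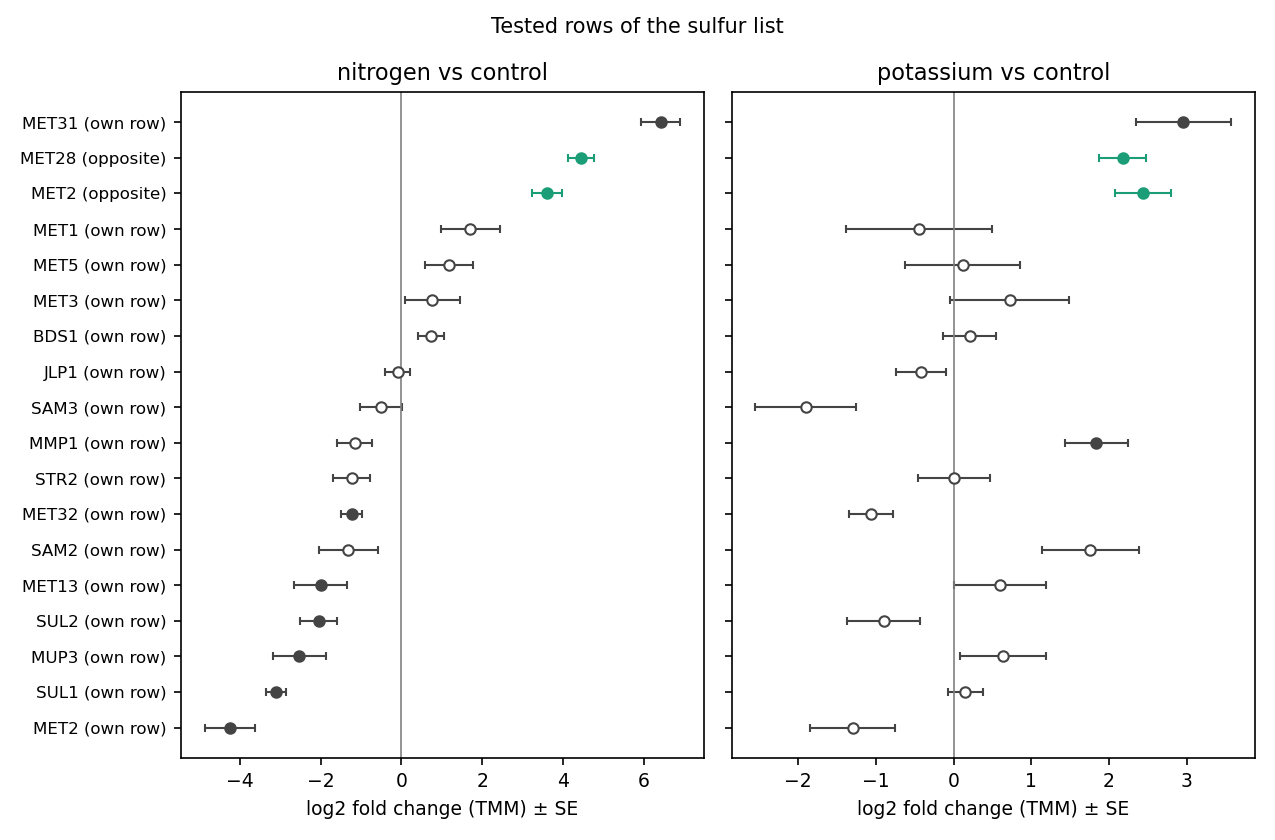
Log2 fold changes with SE (TMM) of the tested rows of the sulfur list that held reads in control, in nitrogen (left) and potassium (right) starvation; filled points have an adjusted p below 0.05, green marks the features opposite MET2 and MET28. Own rows run from -4.24 (MET2) to 6.41 (MET31) in nitrogen, and 2 of them, MET31 and MMP1, are called in potassium.

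Rows near the loci were read in the same way, within 5 kb on either side. Near MET2 lay 6 rows, 2 of them tested, and near MET28 lay 7, 2 of them tested. YIR016W, an uncharacterised open reading frame 130 bases past the 3′ end of MET28 and on the same strand as YIR017W-A, held 1 and 1 reads in control, 70 and 76 in nitrogen and 4 and 6 in potassium. Its log2 fold change was 4.60 in nitrogen (SE 0.64, adjusted p = 6.7e-04) and 2.15 in potassium (adjusted p = 0.14), values close to those of YIR017W-A. YIR018C-A, 1444 bases upstream of MET28 and on its strand, had 2.05 in nitrogen (adjusted p = 0.014), not called when control library 2 (0.086) or nitrogen library 2 (0.058) was left out, and larger without control library 1 (adjusted p = 0.036). Near MET2, PRM1, which acts in membrane fusion of mating cells, lay 4446 bases away and had 1.62 (adjusted p = 0.0028), and TOF1, of the replication fork, had 0.62 (adjusted p = 0.22). The nearest rows on either side of MET2, YNL277W-A at 481 bases and BOR1 at 458 bases, held at most 12 reads in any library.

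The rows whose pattern over the 6 libraries was nearest to each member were sought as a description. They were taken from 1220 tested rows with a mean of at least 20 reads. The distance was that between log2 CPM profiles centred on their own mean. The log2 CPM used a prior count of 2, which narrows the changes of rows with few reads. Nearest to YNL276C were IST2, TCD2, CTF19, CTF18 and DFG16, all under their own identifiers, at distances of 0.47, 0.68, 1.12, 1.29 and 1.31. Their fitted log2 fold changes ran from 2.87 to 5.19 in nitrogen and from 1.68 to 4.03 in potassium. Those of YNL276C were 3.61 and 2.44. IST2 held 0 and 1 reads in control, 35 and 65 in nitrogen and 14 and 7 in potassium. Nearest to YIR017W-A were HHY1, KAP95, SGV1, SAN1 and FAT3, at 0.75, 0.78, 0.79, 0.95 and 1.02. HHY1 held 3 and 4 reads in control, 204 and 189 in nitrogen and 19 and 8 in potassium. The distance between both members was 1.39, which made YIR017W-A the 7th nearest row to YNL276C and YNL276C the 15th nearest to YIR017W-A. The 10 rows named were picked for likeness to the members, so their shared order follows from the choice. Each was high without nitrogen, lower without potassium and lowest in control by group mean. Most held far fewer reads than the members.

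**Figure D5:**
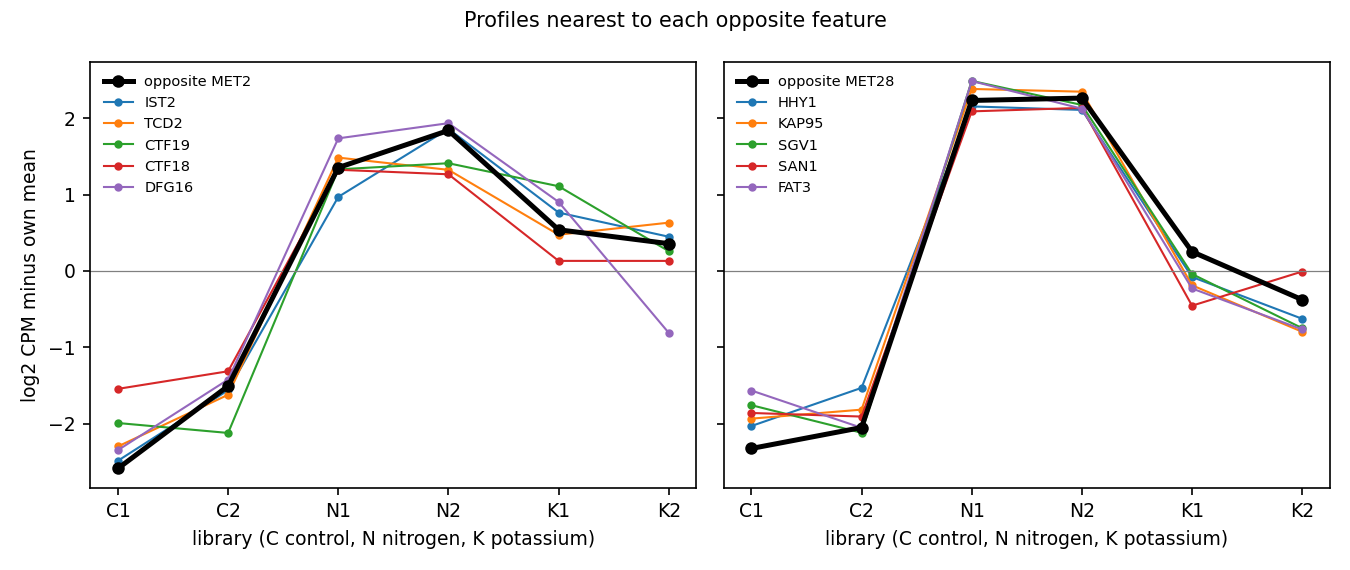
Log2 CPM minus the row's own mean over the 6 libraries (C, control; N, nitrogen; K, potassium), for YNL276C with its 5 nearest rows (left) and YIR017W-A with its 5 nearest rows (right). The profile opposite MET2 lies above its mean in both potassium libraries, and that opposite MET28 lies above it in potassium library 1 and below it in library 2.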

How the data were processed

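Per the labels' protocols, RNA was purified on columns with DNase digestion and made into libraries by the KAPA mRNA HyperPrep kit. The authors' deposited files give estimated counts and TPM per feature under column names that salmon uses, while the submitters' processing notes list STAR 2.7.3a, DESeq2 and R64. Neither the quantifier's version nor its annotation or use of strand is stated in the sources used here. A deposited table of the series holds a signal, counts divided by 1 size factor per library: multiplied back, 100% of values were whole within 0.001 reads and 100% equalled the rounded estimated counts. Since these reads equal the rounded counts, an edgeR fit to them called the same numbers of features, 1075, 217 and 992.

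Features were placed on R64 from the RefSeq annotation (6088) or by searching the named strand for an open reading frame with the file's length (626). A feature was paired with a protein-coding gene when 50% of its length, and 100 bases, lay opposite that gene, which gave 400 paired features, 359 of them tested. Estimated counts were rounded and fitted with edgeR 4.0.16 in R 4.3.3 (quasi-likelihood, TMM, filterByExpr, 6 libraries, 3 residual degrees of freedom); SE is the size of the log2 fold change over the root of F. Alternatives used limma 3.58.1 and DESeq2 1.42.0. The batch number in the labels pairs libraries across groups; their deviations correlated at -0.0011 (control and nitrogen), 0.00069 (control and potassium) and 0.064 (nitrogen and potassium). Libraries of a group differed beyond sampling (chi-square per degree of freedom 6.25 to 22.6). In bulk RNA, fewer cells and less RNA per cell cannot be told apart.

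The members, the sulfur list, the pairing rule and the motifs were chosen with earlier results of these data known. Named were the 4 rows, called genes of the sulfur list, called neighbours within 5 kb and the 5 nearest profiles for each opposite feature; other rows of the list and neighbours were named after their values were seen.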

Additional observations from a re-analysis of the deposited data

How the results depend on the processing

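Directions of the 4 member rows were kept under each alternative that gave a value (19, or 18 for YIR017C). Of these alternatives, 1 is the fit to the recovered whole reads, which repeats the main fit. The nitrogen rises of YNL276C (log2 3.15 to 5.69) and YIR017W-A (4.32 to 6.47) were called in all 19. With the batch as a replicate block no member call changed, for example 3.63 for YNL276C and 4.45 for YIR017W-A in nitrogen against control. The potassium rises were not called with limma on log2(TPM + 1) (2.80 for YNL276C, 2.41 for YIR017W-A) or log2(TPM + 5) (2.73 and 2.33). Nitrogen against potassium was not called for YNL276C with limma on log2(deposited normalised counts + 1) (1.37), and ran from 0.90 to 1.39 over leave-one-out fits. For YNL277W it was not called with library size alone (-1.48), log2(TPM + 1) (-0.88) or log2(TPM + 5) (-0.34). For YIR017C it was called with library size alone (3.21), the paired scaling (2.84), log2(TPM + 1) (2.73), log2(TPM + 5) (1.55) and the normalised counts (1.67), and its fitted nitrogen value against control ran from 5.63 to 6.18 over leave-one-out fits. Features called in nitrogen numbered 1075, and 1639 with log2(TPM + 1). Features called in potassium numbered 217, against 111 with library size alone, 2 with log2(TPM + 1), 3 with log2(TPM + 5), 86 with the normalised counts, and 71 to 231 over leave-one-out fits. Among own rows of the list called in nitrogen, those that turned direction were MET13 with log2(TPM + 1) (0.014), and MET32 with library size alone (0.49), the paired scaling (0.042), log2(TPM + 1) (0.78) and log2(TPM + 5) (0.73). Of the list's rows not called there, STR2, MMP1, SAM3 and JLP1 also turned from below to above 0 with the paired scaling and with library size alone, and SAM2 with library size alone. The cause was not tested. With 2 libraries a group and few reads on the own rows, small differences could not be detected.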
